A study of Mus musculus with 6 samples.

Results

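Smad6, Smad7 and Bambi are feedback inhibitors of bone morphogenetic protein (BMP) signaling, and SMAD1/5 binding was examined around each of them in mouse pluripotent cells. Members were the called SMAD1/5 peaks that overlapped a fixed 200 kb window of the mm9 genome, namely 63750000 to 63950000 on chromosome 9 for Smad6, 75440000 to 75640000 on chromosome 18 for Smad7 and 3410000 to 3610000 on chromosome 18 for Bambi. The windows held 20 of the 24441 peaks in 4 lists: 14 at Smad7, 3 at Smad6 and 3 at Bambi. The antibody was labelled anti-Smad1. The lists came from epiblast stem cells derived in culture from embryonic stem cells (ESD-EpiSCs, primed pluripotency) and from embryonic stem cells of the E14 line (ESCs, naive pluripotency). ESD-EpiSCs were kept in N2B27 medium with FGF2 and Activin A and received BMP-4 at 10 ng/ml for 24 h or for 1.5 h. ESCs were kept with LIF in a serum-free basal medium with BMP-4 at 10 ng/ml (LIF+BMP-4), or with LIF in fetal bovine serum (LIF+serum). Each condition was a single library of the E14 line, so differences have no check across replicates and were not tested. Cell state cannot be told apart from medium, BMP-4 exposure or library.

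BMP receptors phosphorylate SMAD1 and SMAD5, which join SMAD4 and enter the nucleus to regulate genes. In many cell types these targets include the pathway's own inhibitors, which closes a negative feedback loop. Smad6 encodes an inhibitory SMAD that acts mainly on the BMP branch and can compete with SMAD4 for activated SMAD1. Smad7 encodes an inhibitory SMAD that binds type I receptors of both the BMP and the TGF-β/Activin branches and recruits SMURF ubiquitin ligases to them. Bambi encodes a transmembrane pseudoreceptor, which resembles a type I receptor but lacks the kinase domain. In naive mouse ESCs, BMP-4 together with LIF supports self-renewal in serum-free medium.

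The Smad6 promoter is shown because it was the only promoter of the 3 genes in the RefSeq table used. The stretch runs from 110 bases before the annotated start to 10 bases after it, on the minus strand at chr9:64022050-64022169 of GRCm38.p6, from RefSeq. These positions belong to a later build than the mm9 peaks, so no peak can be placed on it. Capitals mark GGAGCC, a GC-rich SMAD1/5 element, and GTCTAGAC, a palindrome of the SMAD-binding element GTCT.
Smad6: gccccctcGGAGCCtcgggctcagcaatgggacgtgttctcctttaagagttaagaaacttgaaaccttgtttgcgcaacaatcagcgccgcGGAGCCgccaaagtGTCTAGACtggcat
GGAGCC began at −102 and −18, counted from −1 as the last base before the start. GTCTAGAC ran from −4 to 4 and holds 2 matches of GTCT, at −4 and at 1. On either strand of the 300-base RefSeq windows around 32851 starts, GTCTAGAC occurred in 70 (0.213%), GGAGCC in 30.8% and GTCT in 88%. GGCGCC, another GC-rich SMAD1/5 element, had no match in the Smad6 window and occurred in 11.9% of all windows. The table matched 1 of the 3 genes.

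In the 200 kb windows, the Smad7 window held more ESC peaks than the other 2. The Smad7 window held 0 peaks in ESD-EpiSCs at 24 h, 2 in ESD-EpiSCs at 1.5 h, 7 in LIF+BMP-4 ESCs and 5 in LIF+serum ESCs. Smad6 had 0 peaks in ESD-EpiSCs at either time, 1 in LIF+BMP-4 ESCs and 2 in LIF+serum ESCs. Bambi had 0 in ESD-EpiSCs at either time, 2 in LIF+BMP-4 ESCs and 1 in LIF+serum ESCs. Merged across lists these peaks made 11 separate regions at Smad7, 2 at Smad6 and 3 at Bambi, and no region held a peak of more than 2 lists. For comparison the genome was cut into 12857 tiles of 200 kb. Of these, 2.52% held 7 or more LIF+BMP-4 peaks and 2.78% held 5 or more LIF+serum peaks, the counts at Smad7, and 1.36% met both limits. At least 1 LIF+BMP-4 peak was found in 45.5% of tiles and at least 2 in 25.8%, while 35.5% held at least 1 LIF+serum peak and 17.4% at least 2. The Smad6 and Bambi counts of 1 or 2 were thus met or exceeded by 17.4% to 45.5% of tiles, and the median tile held 0 peaks in either ESC list. The windows were set around named genes and the tiles were not, so these shares do not compare the loci with other genes. Windows widened by 100 kb on each side held 10 LIF+BMP-4 and 8 LIF+serum peaks at Smad7, 5 and 5 at Smad6, and 3 and 2 at Bambi. The central 100 kb of the windows held 4 LIF+BMP-4 and 2 LIF+serum peaks at Smad7, 1 and 2 at Smad6, and 2 and 1 at Bambi, so in LIF+serum Smad7 then had no more peaks than Smad6. The positions of the windows were not checked against an mm9 annotation, and every count by gene depends on them. The number of reads behind each list is unknown.

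**Figure D1:**
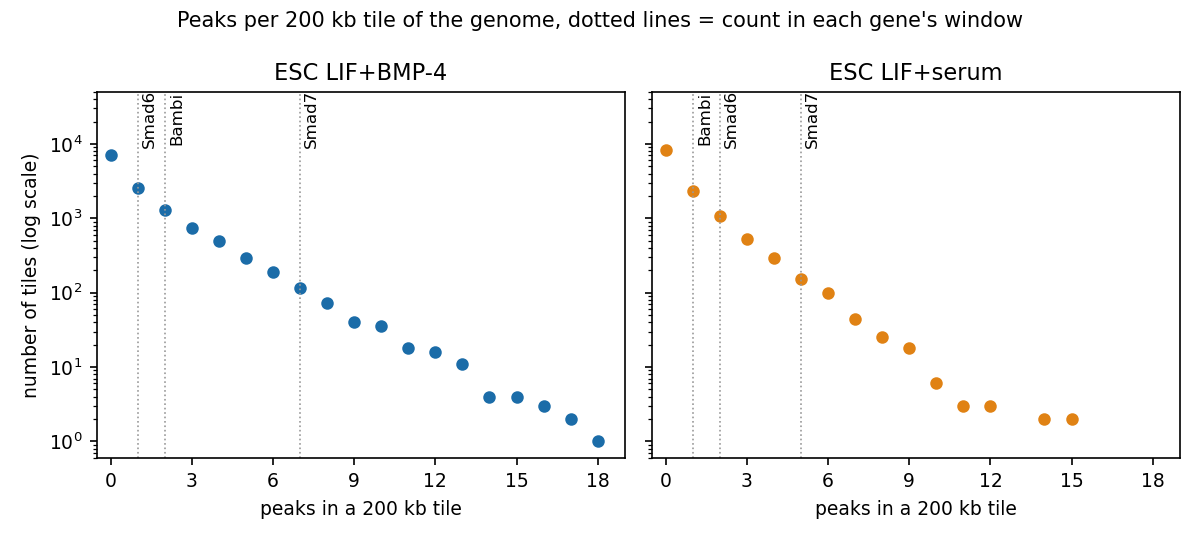
Number of 200 kb tiles of the genome (log scale) by the number of SMAD1/5 peaks they hold, for ESCs in LIF+BMP-4 (left) and LIF+serum (right). Dotted lines mark the count in each gene's window: Smad7, with 7 and 5 peaks, lies in the sparse tail, and Smad6 and Bambi, with 1 or 2, do not. The tiles were not set around genes, so the plot does not compare these loci with other genes.

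Among the inhibitory SMADs, the Smad7 window held the highest-ranked ESC site of the 3 loci, and both ESC media had it. It lay at 75520167 to 75520980 in LIF+BMP-4 ESCs, with a score of 246.52 and rank 526 of 14696. In LIF+serum ESCs it lay at 75519797 to 75521148, with a score of 176.64 and rank 567 of 9387. The score is the authors' value for each peak and orders peaks within its own list only, and rank 1 is the highest. This site stood above 96.4% of LIF+BMP-4 peaks and 94.0% of LIF+serum peaks. There were 5330 pairs of ESC peaks, 1 per medium, in which each peak overlapped its partner alone. Of these pairs, 4.88% were placed at least as high in both lists, and 55% had at least as large a lead in LIF+BMP-4 as its 2.45 percentile points. On chromosome 18 the site held place 11 of 437 in LIF+BMP-4 and place 14 of 287 in LIF+serum. The midpoints of its 2 peaks were 101 bp apart, against a median of 70.5 bp over all such pairs. Smad7 lies between Dym and Ctif in the RefSeq gene order. No mm9 gene positions were used, so no peak of its window can be given to one of these genes.

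A further pair of sites in the Smad7 window was called in both media, at very unequal places in the lists. The region spanning 75624361 to 75625210, 84.8 kb from the window centre, had rank 1180 in LIF+BMP-4 (score 180.61), above 92.0% of that list. In LIF+serum it had rank 9177 (score 50.76), above 2.22% of the list and close to the lowest score deposited, 50.01. That gap of 89.8 percentile points was reached, in the same direction, by 8 of the 5330 pairs (0.15%). The region spanning 75509269 to 75510418 had rank 5404 in LIF+BMP-4 and rank 7950 in LIF+serum, above 63.0% and 15.3% of those lists. A gap at least that large in that direction occurred in 10.6% of pairs. Ranks in lists of different length are not a measure of change in binding. They show only that the first of these regions was among the well-scored calls of one list and the marginal calls of the other.

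The other peaks in the Smad7 window were found in 1 list each. LIF+BMP-4 alone had 4, at 75469290 (rank 5645), 75547011 (rank 11905), 75578940 (rank 6221) and 75601410 (rank 10719), with widths of 359 to 529 bp. LIF+serum alone had 2, at 75609210 (rank 4740) and 75635173 (rank 7353), with widths of 797 and 465 bp. None of these 6 reached a score of 100, which 29.7% of LIF+BMP-4 peaks and 23.1% of LIF+serum peaks did. Those shares include peaks called in both media, so the comparison is not like for like. The median peak of the 5330 pairs stood above 73.1% of the LIF+BMP-4 list and 62.0% of the LIF+serum list. The peak at 75601410 in LIF+BMP-4 and that at 75609210 in LIF+serum lay 7.44 kb apart, so these calls do not overlap. Read signal between them was not examined here.

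In primed cells Smad7 was the only one of the 3 loci with a call, and it was called at 1.5 h and not at 24 h. Only 1.47% of tiles held any 1.5 h peak, so the absence at Smad6 and Bambi is what nearly all tiles showed. The 1.5 h peaks lay at 75502509 to 75502695 (score 105.88, rank 38 of 225, 187 bp wide) and at 75526681 to 75526779 (score 54.57, rank 164, 99 bp wide). The first scored above 83.1% of the 1.5 h list and the second above 27.1%. They were 2 of the 3 peaks that the 1.5 h list held on chromosome 18, and 0.179% of tiles held 2 or more 1.5 h peaks. Another peak of the same list lay within 25 kb for 21.3% of 1.5 h peaks, as it did for these at a distance of 24.0 kb. The 25 kb limit was not planned and lies just above that distance, so the share is a description only. At 24 h the nearest peak was 373 kb outside the Smad7 window, and 0 of these 2 places were called again, in a list where 7.11% of all 1.5 h peaks were. The 24 h list held 133 peaks genome-wide and only 0.91% of tiles had one, so its lack of a Smad7 call does not show a loss of binding.

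Neither primed-state peak fell on a naive-state peak, although both lay close to one. The stronger ended 6.94 kb before a LIF+BMP-4 peak and 6.57 kb before a LIF+serum peak. The weaker began 5.70 kb after the LIF+BMP-4 peak and 5.53 kb after the LIF+serum peak of the top Smad7 site. The 2 thus flanked the pair of ESC regions at 75509269 and 75519797, with no ESC peak between either of them and its neighbour. Over the whole 1.5 h list, 34.7% of peaks overlapped an ESC peak. Of the 147 that did not, 28.6% had an ESC peak within 10 kb and the median distance was 30.2 kb. With 2 peaks, 0 overlaps allow a share of up to 84.2% (exact binomial 95% interval, counting error only). Tiles with 7 or more LIF+BMP-4 peaks held a 1.5 h peak in 14 of 324 cases (4.32%), against 1.47% of all tiles.

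**Figure D2:**
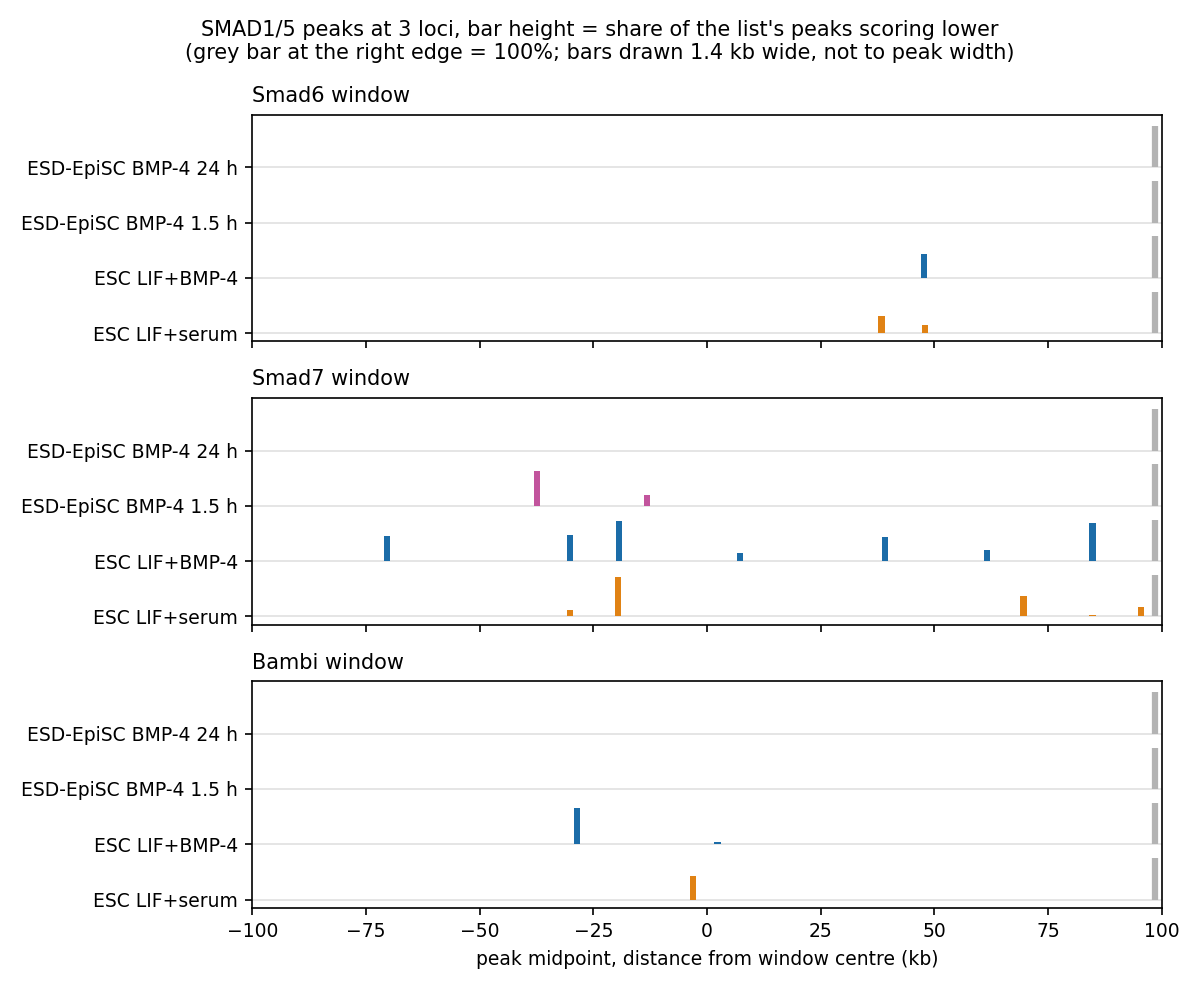
SMAD1/5 peaks in the windows of Smad6 (top), Smad7 (middle) and Bambi (bottom), by distance of the peak midpoint from the window centre in kb, with 1 row per library. Bar height is the share of the same list's peaks that score lower, with a grey bar for 100%. At Smad7 the 2 peaks of ESD-EpiSCs at 1.5 h, at −37.4 and −13.3 kb, stand on either side of the ESC peaks at −30.2 and −19.5 kb, and the 24 h row is empty in all 3 windows.

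Smad6, the inhibitory SMAD of the BMP branch, had 1 site in common between the media, and it was a broad call of modest score. It lay at 63897244 to 63898282 in LIF+BMP-4 (score 83.52, rank 6269) and at 63896930 to 63898799 in LIF+serum (score 56.45, rank 7441). These places were above 57.3% of the LIF+BMP-4 list and 20.7% of the LIF+serum list, and 17.4% of pairs had a gap at least that large in that direction. By width the site stood far higher, at place 276 of 14696 in LIF+BMP-4 (1039 bp) and place 115 of 9387 in LIF+serum (1870 bp). The other Smad6 peak was in LIF+serum alone, at 63887956 to 63888721 (score 65.45, rank 5470), 8.21 kb from the shared one. Both sites lay in the right part of the window, and the part left of 63887956 held no peak in any list. Just outside the window, 17.5 kb beyond its right end, LIF+BMP-4 had a peak of rank 1381, and LIF+serum had one of rank 4194 at 17.4 kb. In the RefSeq gene order Smad6 lies between Smad3 and Lctl, and no mm9 gene positions were used, so a peak cannot be given to one of these genes.

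Bambi was the locus at which the 2 media had no peak in common. A peak of the other medium overlapped 0 of its 2 LIF+BMP-4 peaks and 0 of its 1 LIF+serum peak. The exact binomial 95% intervals were 0 to 84.2% and 0 to 97.5% (counting error only). Over the whole lists, 38.7% of LIF+BMP-4 peaks and 58.8% of LIF+serum peaks were shared in this way. Both shares lie inside these intervals, so the few peaks here do not set Bambi apart. LIF+BMP-4 had a well-scored peak at 3481081 to 3481761 (score 150.52, rank 1812), above 87.7% of its list, and a marginal one at 3512046 to 3512500 (score 51.98, rank 13808), above 5.71%. LIF+serum had 1 peak, at 3506467 to 3507336 (score 76.3, rank 3974), above 57.6% of its list. It lay between the LIF+BMP-4 peaks, 24.7 kb from the stronger and 4.71 kb from the weaker, and widening every peak by 1 kb on each side brought none together. Bambi lies between Cul2 and Lyzl1 in the RefSeq gene order. The nearest ESD-EpiSC peaks were 15496 kb (24 h) and 32488 kb (1.5 h) from the window, on a chromosome with 3 peaks in each of those lists.

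Across the 3 loci, sharing between the media was near that of the whole lists. A LIF+serum peak overlapped 4 of the 10 LIF+BMP-4 peaks (40.0%, with a Clopper-Pearson 95% interval of 12.2 to 73.8), against 38.7% of all LIF+BMP-4 peaks. A LIF+BMP-4 peak overlapped 4 of the 8 LIF+serum peaks (50.0%, 15.7 to 84.3), against 58.8% of all LIF+serum peaks. By gene, 3 of the 4 shared regions were at Smad7, 1 at Smad6 and 0 at Bambi. Smad7 also held most of the peaks: 3 of its 7 LIF+BMP-4 peaks (42.9%) and 3 of its 5 LIF+serum peaks (60%) were shared. At Smad6 these were 1 of 1 and 1 of 2. All 4 shared regions were placed higher in the LIF+BMP-4 list than in the LIF+serum list, as were 61.2% of all pairs. Their leads ran from 2.45 to 89.8 percentile points, and the median over all pairs was 5.23. Places in lists of different length are not a measure of change in binding. The LIF+serum call was 1.12 to 2.87 times as wide as the LIF+BMP-4 call at each of the 4, and the median over all pairs was 1.48 times. The median peak of the loci stood above 59.6% of the LIF+BMP-4 list (10 peaks) and above 31.6% of the LIF+serum list (8 peaks) by score. By width the same medians were 56.9% for LIF+BMP-4 and 57.3% for LIF+serum, so they lay apart by score but not by width. The spread of these medians was not measured, and the 4 shared regions count in both. Scores of 100 or more were found for 3 of 10 LIF+BMP-4 peaks and 1 of 8 LIF+serum peaks, against 29.7% and 23.1% of those lists, and for 1 of the 2 peaks at 1.5 h, against 19.6%.

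**Figure D3:**
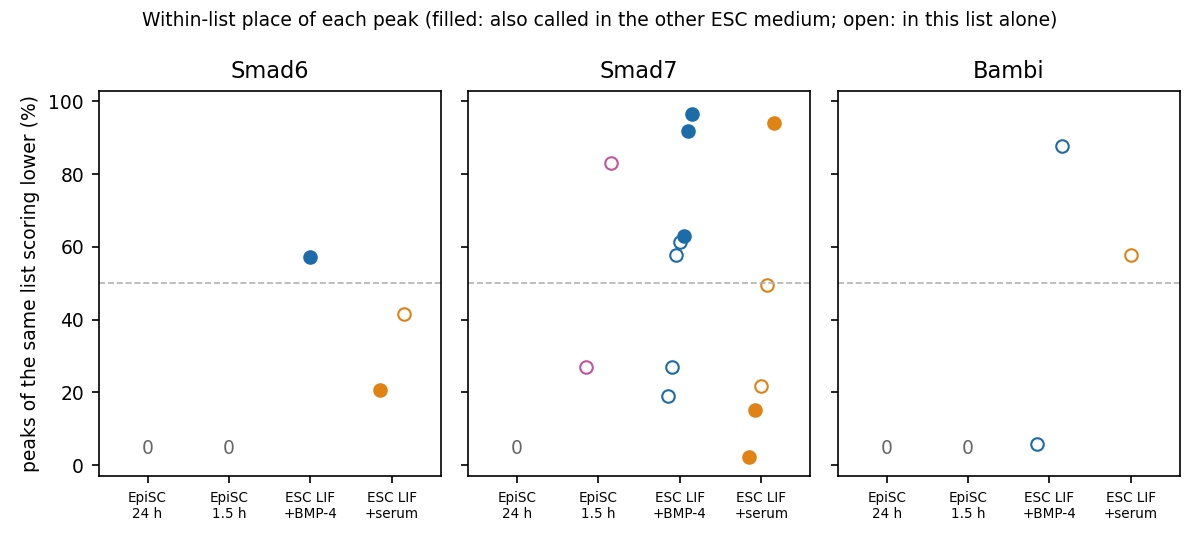
Share of the same list's peaks that score lower, in percent, for each peak at Smad6, Smad7 and Bambi, by library, with the dashed line at 50%. Filled points were also called in the other ESC medium, and a 0 marks a list with no peak: 7 of the 10 LIF+BMP-4 peaks and 2 of the 8 LIF+serum peaks lie above the line by score, whereas by width the medians were 56.9% and 57.3%.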

How the data were processed

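SMAD1/5 chromatin immunoprecipitation followed by sequencing was analysed from 4 libraries, each the only one of its group by its title. The 2 input libraries were not used here. Per the submitters' processing notes, the mm9 build, MACS 1.4.2, Bowtie 1.1.0 and Picard were used, with no roles stated. The authors deposited 1 peak list per library, with a score per peak of unstated scale. The sources used here name no read numbers, filters or control library, so depth is unknown, and intervals on shares cover counting error over peaks only. Peaks overlapping a window by at least 1 bp were taken in Python 3.11.15 with pandas 2.3.3 and scipy 1.17.1. Peaks were shared when they overlapped by at least 1 bp. Ranks, and the percent of a list scoring lower, were taken within each list. Tiles of 200 kb ran from the first to the last tile with a peak on each chromosome. Overlap, distance and tile counting were tested on simulated data. Positions are 1-based. The members and lists were chosen with earlier results of these data known. The rule named the 3 genes, with every peak in their windows accounted for. Alternatives were a score of at least 100, the central 100 kb, windows wider by 100 kb on each side, overlap of 50% of the shorter peak, peaks extended by 1 kb, ESC lists of equal length, and ranks by chromosome or by width. No mm9 annotation or genome was used, so distances to start sites, motifs in peaks and other BMP pathway genes were not analysed here.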

Additional observations from a re-analysis of the deposited data

How the results depend on the processing

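No paired analysis was possible because no condition has a second library. Scores of 100 or more left 0 LIF+BMP-4 and 0 LIF+serum peaks at Smad6, 1 peak at 1.5 h, 2 LIF+BMP-4 and 1 LIF+serum peaks at Smad7, and 1 LIF+BMP-4 and 0 LIF+serum peaks at Bambi. Then 100% (1 of 1) of LIF+serum peaks had a LIF+BMP-4 peak. The central 100 kb held 4 LIF+BMP-4 and 2 LIF+serum peaks at Smad7, and 2 LIF+serum peaks at Smad6 as well. Windows wider by 100 kb on each side held 5 LIF+BMP-4 and 5 LIF+serum peaks at Smad6, 8 LIF+serum peaks at Smad7 and 2 at Bambi. ESC lists of equal length left 1 LIF+BMP-4 peak at Bambi. Ranked within their chromosome, the median peak stood above 33.3% of peaks at 1.5 h, where chromosome 18 holds 3, and above 60.8% in LIF+BMP-4. Ranked by width, it stood above 56.9% of LIF+BMP-4 peaks and 57.3% of LIF+serum peaks. These counts follow from fewer peaks or other window ends, and the ranks from the measure ranked. Of 65 recomputed values, 46 stayed within 1.5 times the count or within a 95% interval for the share or rank. The other 19 moved past it. Counts of 0 that stayed at 0 are among the 46. For ranks the interval used the number of peaks in the whole list, not the few locus peaks. It does not measure the spread of their median, so whether a rank stayed or moved carries little weight. ESD-EpiSC peaks at 24 h numbered 0 at each locus, and 1.5 h peaks met 0 ESC peaks, under each alternative run for them. Most of these alternatives could not have raised a 0. A higher score limit, a smaller window and a stricter overlap only remove peaks or overlaps. Extension by 1 kb could not close gaps of 5.53 kb or more. Only the wider windows could have added a peak, and they added none in ESD-EpiSCs. Unknown depth limits every absence.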
